A study of Mus musculus with 8 samples.

Results

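Cytochrome P450 families 1, 2 and 3 were followed in primary hepatocytes of mice with and without the metal transporter gene Slc39a8 in liver. The members were all protein-coding genes whose symbol starts with Cyp1, Cyp2 or Cyp3 and a letter, which gave 61 of the 55450 genes counted. The 23 pseudogenes of the same families were left out. RNA-seq was made of 8 libraries in 6 groups: Alb-cre(+/+);Slc39a8(F/F) cells (LSKO) given MnCl2, FeCl2, Sodium Selenite or ZnCl2 at 2 µM for 24 h (1 library each), untreated LSKO cells (2 libraries) and untreated Slc39a8(F/F) cells (wild type, WT; 2 libraries). All cells came from C57BL/6 mice of 8 weeks. The methods of the study describe the LSKO donors as male and do not describe the donors of WT hepatocytes. All cells were kept in a serum-free basal medium with 10 µM dexamethasone, a glucocorticoid that itself acts on P450 genes. The series text calls the metal treatment overnight. The albumin-driven Cre acts in hepatocytes, so other cells of the culture keep the floxed gene. The sources do not say whether the 2 replicates of a group came from separate animals, so the spread between them may be technical.

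P450 enzymes are heme-containing monooxygenases of the endoplasmic reticulum that take electrons from the reductase Por and from cytochrome b5. Families 1, 2 and 3 oxidize drugs, plant compounds, combustion products, steroids and fatty acids, and most of them are transcribed mainly in hepatocytes under HNF4A and the ligand-activated receptors AhR, CAR (Nr1i3) and PXR (Nr1i2). Many lie in tandem arrays of close copies, many are stronger around the central vein than around the portal vein, and their transcripts are known to decline when hepatocytes are put in culture.

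Promoters of 6 members are shown because the results below turn on these genes or on close copies of one another. They are RefSeq windows of 250 bases before to 50 bases after the start of the gene (GRCm38.p6, 5′ to 3′ on the gene's strand), which were found for 53 of the 61 members. In Cyp2a5 (chr7:26835089-26835388, plus strand) and its neighbour Cyp2a4 (chr7:26306942-26307241, plus strand) the capitals mark the bases that differ between both genes, 5 of the 299 bases that could be aligned without a gap.
Cyp2a5: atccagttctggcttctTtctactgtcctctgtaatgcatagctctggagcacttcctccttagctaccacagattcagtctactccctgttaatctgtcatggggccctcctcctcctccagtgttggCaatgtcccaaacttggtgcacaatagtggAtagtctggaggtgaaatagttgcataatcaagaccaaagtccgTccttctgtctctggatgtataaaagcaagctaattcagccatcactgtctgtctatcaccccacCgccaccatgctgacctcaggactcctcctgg
Cyp2a4: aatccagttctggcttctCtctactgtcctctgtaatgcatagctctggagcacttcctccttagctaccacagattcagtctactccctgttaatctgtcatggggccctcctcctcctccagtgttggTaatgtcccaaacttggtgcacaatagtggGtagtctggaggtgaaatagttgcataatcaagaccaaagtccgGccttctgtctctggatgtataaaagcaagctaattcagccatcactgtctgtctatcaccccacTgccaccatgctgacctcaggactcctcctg
In Cyp1a1 (chr9:57697363-57697662, plus strand) the capitals mark GCGTG, which lies 54 bases before the start. AhR response elements share this core, but the bases around the match were not compared with a full element. It is therefore not shown to be such an element.
Cyp1a1: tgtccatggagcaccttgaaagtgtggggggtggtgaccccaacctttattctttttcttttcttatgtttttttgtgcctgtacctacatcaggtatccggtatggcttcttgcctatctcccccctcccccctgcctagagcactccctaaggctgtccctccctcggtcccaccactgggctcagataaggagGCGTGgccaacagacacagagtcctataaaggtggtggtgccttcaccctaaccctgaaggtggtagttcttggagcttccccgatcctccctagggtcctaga
In Cyp3a11 (chr5:145879805-145880104, minus strand), Cyp2c67 (chr19:39648993-39649292, minus strand) and Cyp2c68 (chr19:39741052-39741351, minus strand) the capitals mark CAAAGTCCA, an HNF4-type element, which lies 109, 125 and 77 bases before their starts. TATAAA is present in the Cyp2c67 window and not in that of Cyp2c68, and GCGTG in that of Cyp2c68 and not in that of Cyp2c67.
Cyp3a11: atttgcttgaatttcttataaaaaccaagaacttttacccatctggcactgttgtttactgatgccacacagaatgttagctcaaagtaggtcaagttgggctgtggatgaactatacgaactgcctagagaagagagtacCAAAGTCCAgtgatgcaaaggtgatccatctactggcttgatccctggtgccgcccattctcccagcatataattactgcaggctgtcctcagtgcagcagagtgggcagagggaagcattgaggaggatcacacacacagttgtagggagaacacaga
Cyp2c67: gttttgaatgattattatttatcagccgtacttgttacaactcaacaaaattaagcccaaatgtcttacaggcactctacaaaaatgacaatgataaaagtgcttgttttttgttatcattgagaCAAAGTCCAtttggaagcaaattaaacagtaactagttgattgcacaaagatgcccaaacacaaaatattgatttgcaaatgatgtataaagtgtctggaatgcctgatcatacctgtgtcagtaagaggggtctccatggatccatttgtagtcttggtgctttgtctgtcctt
Cyp2c68: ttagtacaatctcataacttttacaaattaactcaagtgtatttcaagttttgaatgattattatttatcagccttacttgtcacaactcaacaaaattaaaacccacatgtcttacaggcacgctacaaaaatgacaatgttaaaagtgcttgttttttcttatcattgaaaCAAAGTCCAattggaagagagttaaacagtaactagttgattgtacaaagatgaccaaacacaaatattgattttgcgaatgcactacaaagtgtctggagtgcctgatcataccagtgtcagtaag

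Motifs were searched on both strands of the 56 member windows (some genes have more than 1) and of all 32851 windows. CAAAGTCCA was found in 17.9% of member windows, against 0.475% of all windows, and its 10 carriers were Cyp2c40, Cyp2c65, Cyp2c67, Cyp2c68, Cyp2c69, Cyp2c70, Cyp3a11, Cyp3a16, Cyp3a41a and Cyp3a41b. These carriers are largely copies of one another, so they are not independent cases. TATAAA stood in 50% of member windows and 13.6% of all, AGGTCA (a nuclear receptor half-site) in 33.9% and 16.3%, and TGTTTAC (a FOXA element) in 17.9% and 3.65%. GCGTG was less frequent in member windows, at 19.6% against 32.4%. None of the 5 motifs contains another. A match is a description of the letters and no evidence of binding.

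Levels are given as normalized CPM, read counts scaled to library size with TMM factors, and comparisons as log2 fold change ± standard error from edgeR's quasi-likelihood F-test with p adjusted by Benjamini-Hochberg over all 15468 genes tested. A call needed an adjusted p below 0.05 together with a log2 difference larger than 0.5 in either direction, and only called genes are said here to have risen or fallen. Each metal has 1 library, for which the spread is borrowed from the WT and LSKO pairs. The untreated LSKO pair differed more than the WT pair (chi-square of read counts per degree of freedom 13.3 and 5.99). Standard errors against untreated LSKO may therefore be too small. Reads in genes numbered 19943899 to 27731054 per library. Slc39a8 itself stood at 3.18, 2.34, 1.48 and 1.83 normalized CPM with manganese, iron, selenite and zinc, at 8.15 and 1.88 in untreated LSKO replicates 1 and 2 and at 12.7 and 15.5 in WT cells, so LSKO replicate 1 lay between the other LSKO libraries and WT (LSKO against WT -1.52 ± 0.44, adjusted p = 0.0426). The libraries also differ in how reads were counted: WT, iron, selenite and zinc libraries set aside 592678 to 680199 reads for low alignment quality, the untreated LSKO libraries 0 and the manganese library 62. The manganese library alone had 72.2% of its reads in genes (39.3% to 42.1% elsewhere). Untreated LSKO against WT therefore compares libraries counted in different ways, and genotype and counting cannot be told apart in it. Iron, selenite and zinc LSKO libraries share the pattern of WT and were set against WT as well.

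Of the 61 members, 36 had at least 80 reads over the 8 libraries and were tested. The 25 others had at most 76 reads in all. Of these, 5 had no read in any library (Cyp2b19, Cyp2j7, Cyp2j12, Cyp2j13 and Cyp3a57), which allows up to 3 reads, or 0.0158 CPM over the 189961242 reads. This limit covers counting error only. Cyp1b1, an AhR target of cells outside the hepatocyte, was untested, with 0.127, 0, 0.0494 and 0 normalized CPM with manganese, iron, selenite and zinc, 0.0881 and 0.0368 in untreated LSKO cells and 0 and 0.175 in WT cells, at most a few reads. Also untested were 6 of 8 Cyp2j and 5 of 9 Cyp3a genes, among them Cyp3a41a and Cyp3a41b, whose transcripts are 99.7% identical so that most reads would match both. Of the 36 tested members, 9 averaged 100 normalized CPM or more, 20 between 1 and 100, and 7 less than 1. Expression per kilobase of transcript was led by Cyp2c70 (mean over 8 libraries 136 normalized CPM per kb), Cyp3a13 (120), Cyp2a12 (103) and Cyp2d26 (96.7), followed by Cyp2a5, Cyp2d10, Cyp2e1, Cyp2b10, Cyp3a11 and Cyp2d9 (71.5 to 23.5).

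The 61 members together held 2212, 1889, 2655 and 1851 normalized CPM with manganese, iron, selenite and zinc, 1605 and 2154 in untreated LSKO cells and 1035 and 976 in WT cells. Every LSKO library was above both WT libraries in this sum, and the selenite library was the highest. Of the 36 tested members, 18 had their highest value in the selenite library, 6 with manganese, 5 with iron, 5 in LSKO replicate 2, 2 in WT and 0 with zinc. In all 6 LSKO libraries 23 members (63.9%) stood above both WT libraries, where 11.2% of all genes tested did so. A single member, Cyp2u1, stood below both WT libraries in all 6, where 9.59% of all genes did so. Cyp2u1, which hydroxylates long-chain fatty acids, had 2.71, 3.24, 2.52 and 2.93 normalized CPM with the metals in the same order, 3.13 and 2.87 in untreated LSKO cells and 3.47 and 3.67 in WT cells, and its log2 fold change of -0.25 ± 0.22 for untreated LSKO against WT was not called (adjusted p = 0.503).

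**Figure D1:**
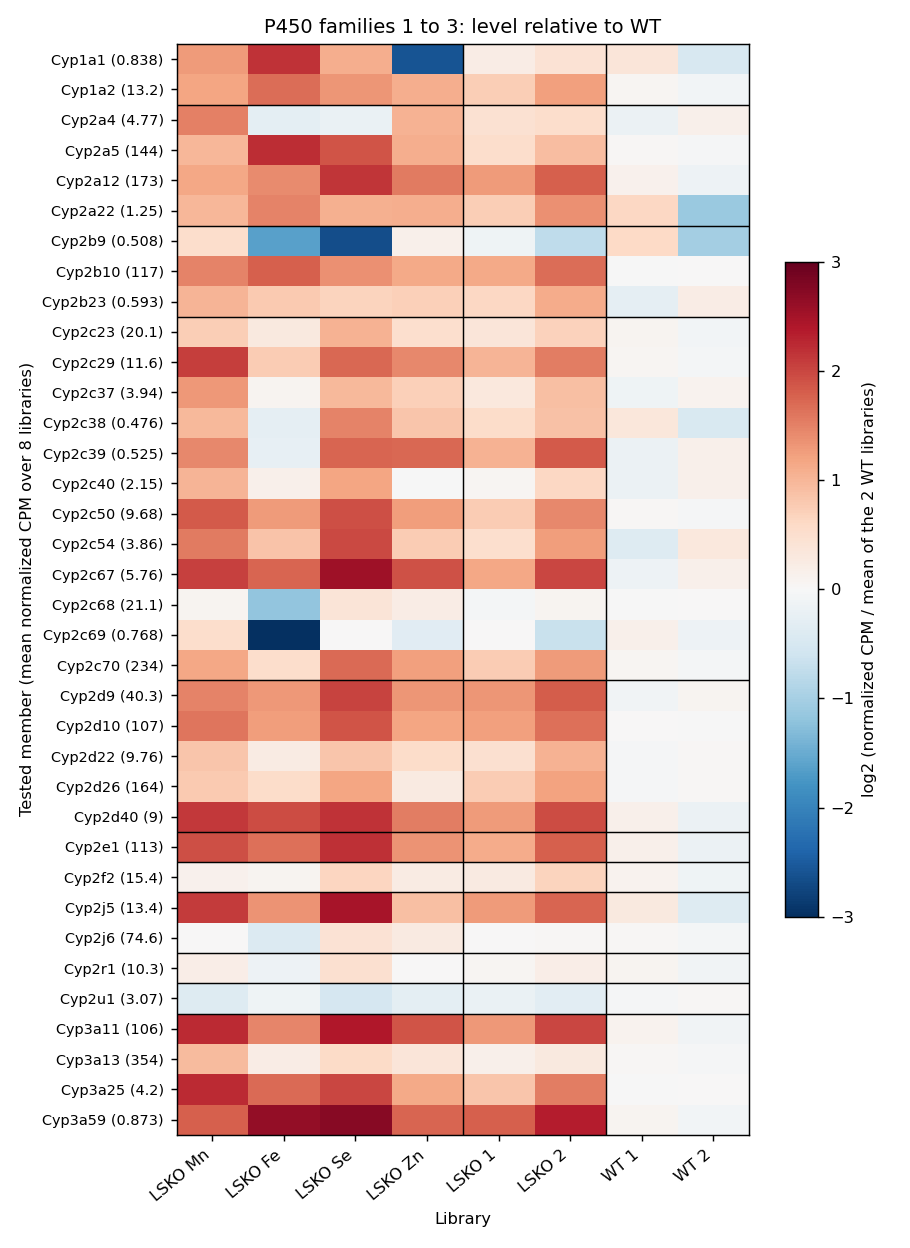
Heat map of the 36 tested members (rows, grouped by subfamily, mean normalized CPM in brackets) in the 8 libraries (columns); colour is the log2 ratio of normalized CPM to the mean of the 2 WT libraries and saturates beyond 3 in size. In the 6 LSKO columns, 23 rows lie above both WT libraries throughout and 1 row, Cyp2u1, lies below them.

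The first question was what the loss of Slc39a8 went with in these genes. In untreated LSKO against untreated WT cells, 19 of the 36 tested members (52.8%) rose, against 6.74% of all genes tested, and 0 fell, against 3.7% of all genes. By unadjusted p under 0.05, 25 members were higher and 0 lower, and DESeq2 called 16 higher and 0 lower. The median log2 fold change was 0.98 over members and 0.00 over all genes. By subfamily, 5 of 5 tested Cyp2d genes rose, 5 of 12 Cyp2c, 3 of 4 Cyp3a, 2 of 4 Cyp2a, 1 of 2 Cyp1a, 1 of 3 Cyp2b, 1 of 2 Cyp2j and Cyp2e1. With 1 library left out, the member median was 1.05 without WT replicate 1 and 0.99 without WT replicate 2. It was 1.25 when LSKO replicate 1 was left out and 0.67 when LSKO replicate 2 was. Any such fit leaves 1 library in that group, which is assumed to vary like the others.

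Iron, selenite and zinc LSKO cells as 1 set, which share the counting pattern of WT, had 20 members higher than WT (55.6%; 7.12% of all genes) and 0 lower (6.93% of all genes; 1 member lower and 24 higher by unadjusted p below 0.05; DESeq2 19 higher and 0 lower). The member median was 1.12, against 0.00 over all genes. No WT library was given a metal, so genotype and metal treatment cannot be told apart in this comparison. Both comparisons use the same 2 WT libraries, so they are not independent. The 20 were the same 19 genes and Cyp2c54. In this comparison 15 of the 20 calls held under each of the 11 alternative fits, and in the comparison of untreated cells 9 of the 19 did: Cyp2a12, Cyp2b10, Cyp2c29, Cyp2d9, Cyp2d10, Cyp2d26, Cyp2e1, Cyp2j5 and Cyp3a11. In untreated cells the calls of Cyp1a2, Cyp2a5, Cyp2c50, Cyp2c67, Cyp2c23, Cyp2d22, Cyp3a25 and Cyp3a59 were lost without WT replicate 1 (adjusted p = 0.0562 to 0.147). Without WT replicate 2 these 8 and those of Cyp2c70 and Cyp2d40 were lost (adjusted p up to 0.160, for Cyp2c23). Without LSKO replicate 2 those of Cyp2c23, Cyp2d22, Cyp3a25 and Cyp3a59 were lost (adjusted p = 0.137 to 0.196). In iron, selenite and zinc LSKO against WT, the calls of Cyp2c54, Cyp2d22 and Cyp2d26 were lost without either WT replicate and those of Cyp2c23 and Cyp3a59 without WT replicate 2.

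Values that moved with genotype in the same libraries bear on these counts. The 8 hepatocyte markers measured (Alb, Ttr, Apoa1 and others) summed to 28869 and 36849 normalized CPM in untreated LSKO cells, against 20699 and 19679 in WT cells, and 7 of the 8 rose (median 0.83). Sinusoidal endothelium markers summed to 235 and 183, against 289 and 306, with 4 of 10 lower. Bile duct markers summed to 65.9 and 49.4, against 83.5 and 88.1, with 1 of 3 tested lower (Krt7, Epcam and Cftr were too low to be tested). Kupffer cell markers summed to 304 and 346, against 257 and 233, with 4 of 12 tested higher, and stellate cell markers to 55.7 and 53.2, against 55.8 and 57.4, with 1 of 10 higher and 1 lower. Iron, selenite and zinc LSKO cells had 7 of 8 hepatocyte markers higher than WT and 10 of 10 endothelial markers lower (medians 1.03 and -1.12). In the same comparison 7 of 10 stellate cell markers were lower and 1 higher (median -1.23), 2 of 3 bile duct markers were lower and 3 of 12 Kupffer cell markers were higher. The part of these shifts in the P450 counts was not tested. In bulk RNA, fewer cells of a type and less RNA per cell cannot be told apart. The order of the LSKO replicates also touched these genes: 33 of the 36 tested members (91.7%) were higher in LSKO replicate 2 than in replicate 1, against 49.8% of all genes, with a median log2 ratio of 0.50, whereas 14 of 36 were higher in WT replicate 2 than in WT replicate 1.

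Cyp3a11, the main inducible Cyp3a enzyme of mouse liver and a PXR target, showed one of the wider changes. It stood at 161, 93.7, 181 and 125 normalized CPM with manganese, iron, selenite and zinc, at 83.2 and 135 in untreated LSKO cells and at 36.4 and 31.6 in WT cells. No LSKO library overlapped with WT, and its log2 fold change was 1.69 ± 0.18 for untreated LSKO (adjusted p = 0.000157, edgeR) and 1.91 ± 0.17 for the 3 metal libraries (adjusted p = 6.30e-05), both against WT. Cyp3a25 had 7.62, 5.23, 6.47 and 3.51 normalized CPM with the metals, 2.86 and 4.67 in untreated LSKO cells and 1.60 and 1.61 in WT cells (1.24 ± 0.28 on the log2 scale, adjusted p = 0.0131, for untreated LSKO). Its transcript is 97.0% identical to that of Cyp3a59, so reads may have been assigned between them. Cyp3a59 also rose (2.08) but from few reads, 18 and 32 in untreated LSKO and 7 and 5 in WT libraries. Cyp3a13, the most abundant member by reads, behaved differently from these 3: 539, 324, 413 and 354 normalized CPM with the metals, 308 and 339.7 in untreated LSKO cells and 284 and 269 in WT cells. The LSKO and WT values of Cyp3a13 did not overlap, yet the log2 fold change of 0.23 ± 0.08 was not called (adjusted p = 0.0834).

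The Cyp2d subfamily, a chromosome 15 array that in mouse oxidizes steroids and drugs, rose as a whole among its 5 tested genes. Cyp2d9, a testosterone hydroxylase that is higher in male than in female mouse liver, had 45.8, 40.1, 65.7 and 40.7 normalized CPM with manganese, iron, selenite and zinc, 40.5 and 57.2 in untreated LSKO cells and 15.1 and 17.3 in WT cells (1.60 ± 0.15, adjusted p = 6.99e-05, untreated LSKO against WT). Cyp2d10 followed it, with 138, 108, 168 and 103 normalized CPM with the metals, 107 and 144 in untreated LSKO cells and 45.7 and 45.2 in WT cells (1.46 ± 0.12, adjusted p = 3.02e-05). Cyp2d26, the most abundant of the array, had 178, 152, 236 and 125 with the metals, 176 and 240.1 in untreated LSKO cells and 101 and 107 in WT cells (1.00 ± 0.12, adjusted p = 0.000368). In all 3 genes the groups did not overlap. Cyp2d40 stood at 13.0, 11.8, 13.4 and 8.68 normalized CPM with the metals, 7.36 and 11.7 in untreated LSKO cells and 3.37 and 2.66 in WT cells (1.65 ± 0.24). Cyp2d22 stood at 11.9, 7.97, 11.9 and 9.78 with the metals, 9.38 and 13.8 in untreated LSKO cells and 6.52 and 6.85 in WT cells (0.80 ± 0.19), the smallest change of the 5, and its call was lost without LSKO replicate 2 (0.50, adjusted p = 0.169), WT replicate 1 (adjusted p = 0.147) or WT replicate 2 (adjusted p = 0.124) and in DESeq2 (adjusted p = 0.0598).

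Among the pericentral enzymes, Cyp2e1, which oxidizes ethanol and small solvents, had 159, 131, 189.8 and 106 normalized CPM with manganese, iron, selenite and zinc, 90.3 and 145 in untreated LSKO cells and 46.6 and 37.0 in WT cells (1.49 ± 0.19, adjusted p = 0.000395, untreated LSKO against WT). Cyp1a2, which oxidizes caffeine and aromatic amines under AhR, had 14.9, 20.8, 16.5 and 14.0 with the metals, 11 and 15.5 in untreated LSKO cells and 6.87 and 6.24 in WT cells (1.01 ± 0.18, adjusted p = 0.00321). Cyp2c29, a CAR target, had 20.8, 8.42, 16.4 and 13.5 with the metals, 9.91 and 14.3 in untreated LSKO cells and 5.10 and 4.76 in WT cells (1.30 ± 0.19, adjusted p = 0.00105). All 3 were above WT in every LSKO library. Of the 7 tested members of the pericentral list, 5 rose and 2 were not called. The periportal enzyme Cyp2f2, which activates naphthalene, differed less: 13.9, 13.5, 19.9 and 15.0 normalized CPM with the metals, 15.3 and 20.3 in untreated LSKO cells and 13.7 and 11.7 in WT cells, not called at 0.49 ± 0.16 (adjusted p = 0.0592). The difference between both zones was not tested.

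Cyp2b10, the classical CAR target, stood at 143, 175, 132 and 112 normalized CPM with manganese, iron, selenite and zinc, at 111 and 163 in untreated LSKO cells and at 50.5 and 51.0 in WT cells. It rose by 1.44 ± 0.15 on the log2 scale in untreated LSKO against WT (adjusted p = 0.000104), and the metal libraries lay near the untreated LSKO ones. Cyp2b9, a relative that is higher in female mouse liver, was near the limit of detection in all groups, with 0.890, 0.199, 0.0988 and 0.693 normalized CPM with the metals, 0.573 and 0.368 in untreated LSKO cells and 0.937 and 0.305 in WT cells, and was called in none of the 7 comparisons.

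In the Cyp2a array, Cyp2a12, a steroid hydroxylase, had 153, 183, 303 and 202 normalized CPM with manganese, iron, selenite and zinc, 165 and 238 in untreated LSKO cells and 75.0 and 61.5 in WT cells (1.56 ± 0.15, adjusted p = 7.99e-05, untreated LSKO against WT). Cyp2a5, which oxidizes coumarin and nicotine, had 129.6, 299, 238 and 138 with the metals, 93.9 and 123 in untreated LSKO cells and 66.2 and 63.3 in WT cells (0.75 ± 0.11, adjusted p = 0.00147). Without WT replicate 1 its adjusted p in this comparison was 0.0562 and without WT replicate 2 it was 0.0682. Cyp2a4, a testosterone hydroxylase with a transcript 98.2% identical to that of Cyp2a5, had 9.49, 2.74, 2.91 and 6.85 with the metals, 4.58 and 4.86 in untreated LSKO cells and 2.98 and 3.71 in WT cells, and was not called between untreated LSKO and WT (0.50 ± 0.20, adjusted p = 0.131).

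The Cyp2c array on chromosome 19, which epoxidizes and hydroxylates fatty acids, was divided. Cyp2c70, which converts bile acids to muricholic acids in mice, had 272, 176, 393 and 287 normalized CPM with manganese, iron, selenite and zinc, 207 and 296 in untreated LSKO cells and 126 and 117 in WT cells (1.05 ± 0.14, adjusted p = 0.000525, untreated LSKO against WT). Cyp2c50 had 14.9, 10.1, 15.9 and 9.95 with the metals, 7.0 and 11.3 in untreated LSKO cells and 4.23 and 4.06 in WT cells (1.15 ± 0.22, adjusted p = 0.00592). Cyp2c67 had 7.50, 6.08, 10.7 and 6.85 with the metals, 4.05 and 7.32 in untreated LSKO cells and 1.63 and 2.01 in WT cells (1.66 ± 0.29, adjusted p = 0.00346). These 3 stood above WT in every LSKO library. Cyp2c68, a close copy of Cyp2c67 with which it shares the marked promoter element shown above, did not follow: it had 22.3, 9.32, 27.8 and 24.7 normalized CPM with the metals, 20.4 and 22.3 in untreated LSKO cells and 21.1 and 21.2 in WT cells. Its log2 fold change between untreated LSKO and WT was 0.02 ± 0.11 (adjusted p = 0.945). Cyp2c40, 98.0% identical to Cyp2c68, had 3.18, 1.74, 3.56 and 1.55 with the metals, 1.63 and 2.39 in untreated LSKO cells and 1.39 and 1.75 in WT cells and was not called (0.38 ± 0.31). Cyp2c54 had 5.63, 3.44, 7.51 and 3.22 with the metals, 2.69 and 4.56 in untreated LSKO cells and 1.46 and 2.36 in WT cells, and was called against WT for the iron, selenite and zinc libraries (1.21 ± 0.29, adjusted p = 0.0128) and not for untreated LSKO (0.96 ± 0.32, adjusted p = 0.0687). The Cyp2c54 call was lost without WT replicate 1 (0.90, adjusted p = 0.127) and without WT replicate 2 (1.58, adjusted p = 0.0559). Cyp2c23, an arachidonic acid epoxygenase, had 23.8, 17.5, 29.3 and 20.3 with the metals, 18.4 and 23.0 in untreated LSKO cells and 15.1 and 13.4 in WT cells (0.54 ± 0.13, adjusted p = 0.0212), close to the call limit. Its call was lost without WT replicate 1, WT replicate 2 or LSKO replicate 2 (adjusted p = 0.0934, 0.160 and 0.163) and in DESeq2 (adjusted p = 0.0898).

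The Cyp2j pair likewise differed. Cyp2j5, an epoxygenase of liver and kidney, had 20.8, 12.4, 27.1 and 9.13 normalized CPM with manganese, iron, selenite and zinc, 11.8 and 16.3 in untreated LSKO cells and 6.04 and 3.75 in WT cells (1.51 ± 0.22, adjusted p = 0.00109, untreated LSKO against WT). Cyp2j6 had 72.1, 53.9, 96.9 and 86.0 with the metals, 71.5 and 73.5 in untreated LSKO cells and 73.6 and 68.9 in WT cells, with overlapping groups and 0.02 ± 0.08 on the log2 scale (adjusted p = 0.880). Cyp2r1, a vitamin D hydroxylase, differed as little, with 10.9, 8.52, 13.3 and 9.62 with the metals, 9.87 and 10.9 in untreated LSKO cells and 10.1 and 8.90 in WT cells (0.12 ± 0.15, adjusted p = 0.624).

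**Figure D2:**
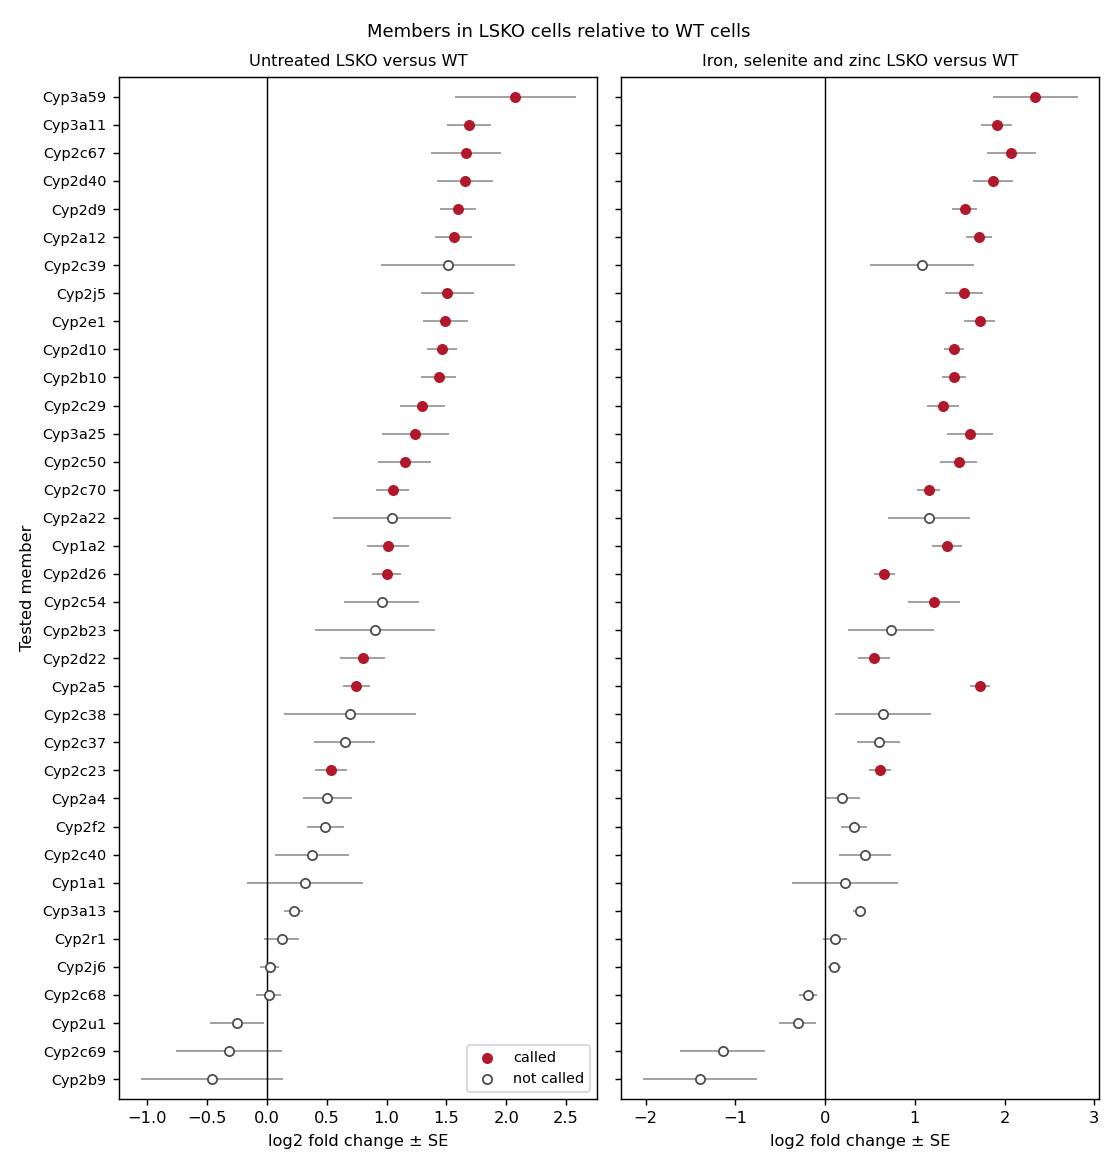
Log2 fold change ± standard error (horizontal axis) of each tested member (rows, same order in both panels) for untreated LSKO against WT (left) and for iron, selenite and zinc LSKO against WT (right); filled points were called. In the left panel 19 members were called and in the right panel 20, all of them above 0.

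The partners and regulators of these enzymes were measured in the same libraries. Por, the electron donor of all members, had 258, 199, 179.7 and 186 normalized CPM with manganese, iron, selenite and zinc, 206 and 219 in untreated LSKO cells and 209 and 206 in WT cells, with overlapping groups and 0.04 ± 0.07 on the log2 scale (adjusted p = 0.802). Of the 5 redox partners tested, Cyb5a (cytochrome b5) rose in untreated LSKO against WT (0.52 ± 0.09, adjusted p = 0.00348) and 4 were not called. Of the 12 regulators tested, 5 rose and 0 fell: Nr1i2 (PXR) by 1.25 ± 0.18, Ppara by 0.72, Hnf4a by 0.63, Nr1h4 (the bile acid receptor FXR) by 0.63 and Ahr by 0.58. Nr1i2 stood at 17.7, 15.5, 18.3 and 14.0 normalized CPM with the metals, 15.5 and 23.0 in untreated LSKO cells and 7.91 and 8.29 in WT cells, without overlap. Nr1i3 (CAR) had 16.6 and 16.8 in untreated LSKO cells and 15.3 and 12.3 in WT cells and was not called (0.27 ± 0.14, adjusted p = 0.227). Of 12 genes of heme synthesis and breakdown, 1 rose (Blvrb, a biliverdin reductase, 0.52) and 1 fell (Hmox1, heme oxygenase, -0.53), and Alas1, the first enzyme of heme synthesis, was not called (0.16 ± 0.08). Of targets of the same receptors outside the P450 genes, 1 of 4 AhR targets and 2 of 9 CAR and PXR targets rose and 0 fell.

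The metals were each compared with untreated LSKO cells. With iron, 2 of the 36 members rose (5.56%; 3.8% of all genes) and 1 fell (2.78%; 4.89% of all genes), shares near those of all genes. The member median was -0.22. At an unadjusted p under 0.05, 3 members were higher and 8 lower. Cyp2a5 rose by 1.46 ± 0.13 on the log2 scale (adjusted p = 8.19e-05, edgeR): its 299 normalized CPM with iron compare with 93.9 and 123 in untreated LSKO cells. This call held under all 11 alternative fits, with log2 fold changes of 1.25 to 1.66. Cyp2a4, whose promoter window differs from that of Cyp2a5 at 5 bases, had 2.74 normalized CPM with iron against 4.58 and 4.86 in untreated LSKO cells (-0.78 ± 0.27, adjusted p = 0.0859, not called). The ratio of Cyp2a5 to Cyp2a4 reads was 109 with iron and 81.6 with selenite, against 13.7 with manganese, 20.2 with zinc, 20.5 and 25.4 in untreated LSKO and 22.2 and 17.1 in WT libraries. At this identity only part of the reads can be assigned to 1 of the 2 genes. Hmox1, which is induced by heme and by metal stress, rose with iron as well (406, 622, 327 and 331 normalized CPM with manganese, iron, selenite and zinc against 286 and 220.3 in untreated LSKO cells; 1.30 ± 0.13 for iron, adjusted p = 0.000170).

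Cyp1a1, the most inducible AhR target, was counted with 28, 44, 21 and 2 reads with manganese, iron, selenite and zinc. Untreated LSKO cells had 13 and 18 reads and WT cells 18 and 8. Cyp1a1 stood at 1.19, 2.19, 1.04 and 0.0815 normalized CPM with the metals, 0.573 and 0.662 in untreated LSKO cells and 0.625 and 0.349 in WT cells. It was highest with iron and lowest with zinc. The rise with iron, 1.81 ± 0.49 (adjusted p = 0.0372), rests on few reads and was lost without LSKO replicate 1 (adjusted p = 0.104) or LSKO replicate 2 (adjusted p = 0.0890) and in DESeq2 (adjusted p = 0.388). The lower value with zinc was not called (-2.85 ± 0.88, adjusted p = 0.105). Cyp1a2, next to Cyp1a1 on chromosome 9, had 0.65 ± 0.20 with iron (adjusted p = 0.0576, not called). The other AhR targets measured did not pass the test with iron (0 of 4).

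Cyp2c68 was the member that fell with iron. It had 9.32 normalized CPM with iron against 20.4 and 22.3 in untreated LSKO cells, and the other libraries lay between 20.4 and 27.8 (-1.20 ± 0.15, adjusted p = 0.000716). The call held under all 11 alternative fits (-1.28 to -1.13), although at 98.0% identity to Cyp2c40 it is dropped where only members under 95% identity are counted. Cyp2c67, its neighbour with the same promoter element, had 0.08 ± 0.32 (adjusted p = 0.890). The other tested carriers of the element lay below 0 with iron and were not called. Cyp2c69 had -2.77 ± 0.88 from few reads (2 with iron, 20 and 15 in untreated LSKO). Cyp2c70 had -0.52 ± 0.17, Cyp3a11 -0.23 ± 0.22 and Cyp2c40 -0.21 ± 0.39. In the iron library 8 of 10 endothelial and 5 of 10 stellate cell markers fell relative to untreated LSKO, as did 5 of 12 Kupffer cell and 2 of 3 bile duct markers. Of the 8 hepatocyte markers 1 fell (Fgb, -0.69) and 0 rose, with a median of -0.29. Their sum, 30687 with iron against 28869 and 36849 in untreated LSKO cells, is mostly Alb (27350.1 with iron). The part of these shifts in the P450 values was not tested. Without LSKO replicate 1 the member median with iron was -0.43, and without LSKO replicate 2 it was 0.05.

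With selenite, 10 members rose (27.8%; 7.89% of all genes) and 0 fell (9.67% of all genes; 1 lower by unadjusted p below 0.05). The member median was 0.42 and that of all genes -0.01. Cyp2a5 led with 1.13 ± 0.13 (adjusted p = 0.000333), 238 normalized CPM against 93.9 and 123 in untreated LSKO cells, and was the 1 of the 10 whose call held under all 11 alternative fits (0.89 to 1.31). It was followed by Cyp2c54 (1.04 ± 0.34), Cyp2j5 (0.94 ± 0.23), Cyp2c67 (0.90 ± 0.30), Cyp2c50 (0.78 ± 0.24), Cyp3a11 (0.72 ± 0.21), Cyp2e1 (0.69 ± 0.21), Cyp2c70 (0.64 ± 0.16), Cyp2a12 (0.59 ± 0.18) and Cyp2c23 (0.50 ± 0.16). In each of the 10 genes the selenite value was above both untreated LSKO values. The genes were called against these same libraries, so this is no separate support. Cyb5a rose as well (0.70), 1 of 5 redox partners, and 0 of 12 regulators were called. Nqo1, an NRF2 and AhR target outside the P450 genes, rose with selenite (1.05 ± 0.17, adjusted p = 0.00194).

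The selenite counts depend on how the library is corrected. Its fold changes follow transcript length and GC content over all genes, and after a correction for both 1 member, Cyp2a5, rose (1.13 ± 0.13 as counted and 0.89 corrected, adjusted p = 0.00122) and 1, Cyp2a4, fell (-0.94, adjusted p = 0.0464), with a member median of 0.20. In that fit 614 of all 15468 genes were higher and 772 lower, with a median of -0.04. DESeq2 called 2 members higher, Cyp2a5 and Cyp2j5, where 726 of all genes were. In both fits the share of members that rose was near that of all genes, unlike the share as counted (27.8% against 7.89%). Without LSKO replicate 1, the lower of both untreated libraries for most members, the member median was 0.25 and fewer members rose. Without LSKO replicate 2 it was 0.65 and more rose. WT libraries enter this comparison only through the spread. Without WT replicate 1 or 2 the median was 0.38, yet fewer members were called. In the selenite library hepatocyte markers summed to 50474 against 28869 and 36849 in untreated LSKO cells, and 4 of 8 rose (median 0.56). In the same library 4 of 10 endothelial and 3 of 10 stellate cell markers fell (medians -0.59 and -0.47), and 3 of 12 Kupffer cell and 1 of 3 bile duct markers rose. The part of these shifts in the result was not tested.

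**Figure D3:**
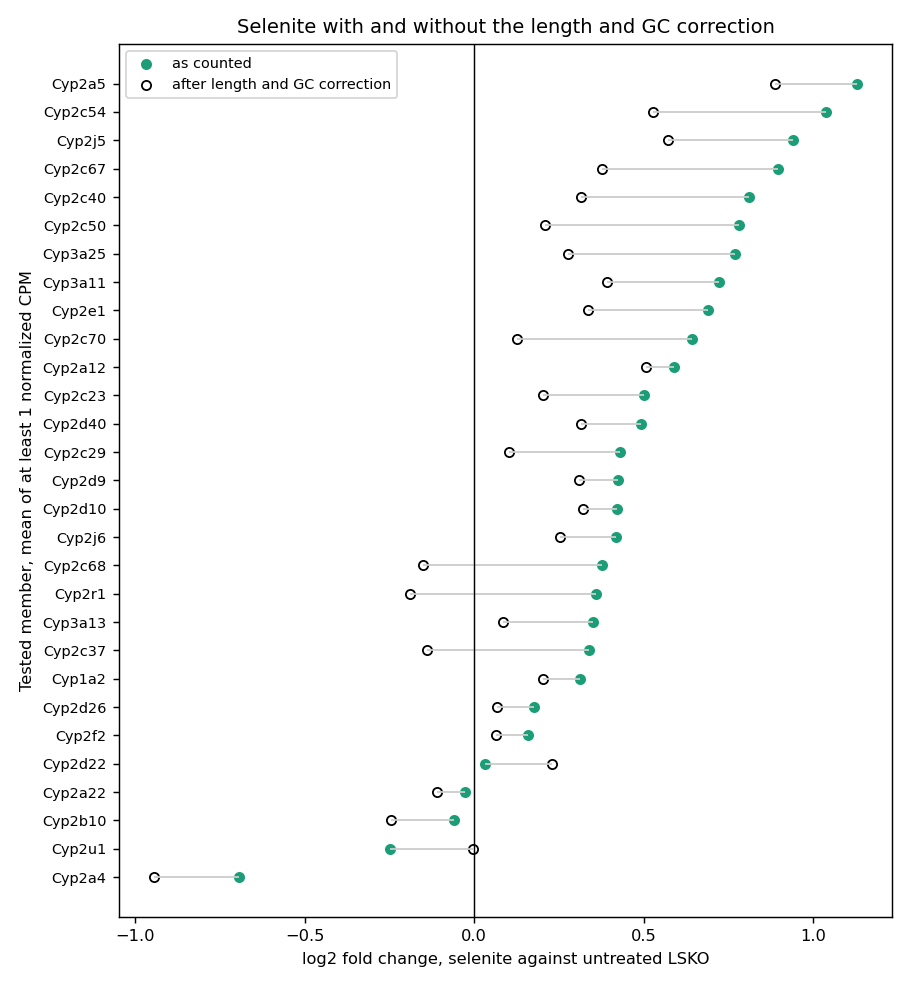
Log2 fold change of selenite against untreated LSKO (horizontal axis) for the tested members with a mean of at least 1 normalized CPM (rows), as counted (filled) and after correction for transcript length and GC content (open). The values of most members lie nearer to 0 after the correction, whereas Cyp2a5 keeps 0.89 of 1.13.

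With manganese, 4 members rose (11.1%; 2.09% of all genes) and 0 fell (15.1% of all genes; 8 higher and 0 lower by unadjusted p below 0.05; DESeq2 1 higher and 0 lower). Cyp3a13 rose to 539 normalized CPM with manganese, against 308 and 339.7 in untreated LSKO cells (0.73 ± 0.09, adjusted p = 0.000143), and held its call in each of the 10 alternative fits that include manganese (0.67 to 0.82). Cyp2a4 rose to 9.49, against 4.58 and 4.86 (1.01 ± 0.22, adjusted p = 0.00771), Cyp2c29 to 20.8, against 9.91 and 14.3 (0.77 ± 0.20), and Cyp3a25 to 7.62, against 2.86 and 4.67 (1.00 ± 0.28). Cyp2c29 and Cyp3a25 were not called without WT replicate 1 (adjusted p = 0.0608 and 0.0665), WT replicate 2 (0.0608 and 0.0662) or LSKO replicate 1 (0.0532 and 0.127), nor in DESeq2, where Cyp2a4 was not called either. Without LSKO replicate 2, 12 members rose. The manganese library differs from all others in its share of reads in genes, and exons that overlap another gene can be counted differently there: Cyp2a4 overlaps a gene on the opposite strand by 61 bases and Cyp2c29 a pseudogene on its own strand by 142. Nr1i3 (CAR) was at 0.466 normalized CPM with manganese against 16.6 and 16.8 in untreated LSKO cells (-5.15 ± 0.30). Overlap with other genes was not checked for Nr1i3. Ambiguous reads, set aside in counting, made up 5.19% of the manganese library and 1.25% to 1.49% of the others. A change in CAR and a change in counting therefore cannot be told apart here. Cyp2b10, a CAR target, had 0.06 ± 0.17 with manganese (adjusted p = 0.855). Of 9 CAR and PXR targets outside the P450 genes, 1 rose and 2 fell with manganese, where 2.09% and 15.1% of all genes did. Of the cell type markers, 4 of 12 for Kupffer cells rose with manganese and 1 fell (median 0.47), 1 of 8 for hepatocytes rose and 1 fell, 1 of 10 for endothelium and 1 of 3 for bile duct fell, and 0 of 10 for stellate cells were called. Their part was not tested, and treatment and counting cannot be told apart in the manganese library.

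With zinc, 0 members rose (2.9% of all genes; 3 by unadjusted p below 0.05; DESeq2 0) and 1 fell (2.78%; 1.55% of all genes; 3 by unadjusted p below 0.05; DESeq2 0). Cyp2d26 fell to 125 normalized CPM with zinc, against 176 and 240.1 in untreated LSKO cells (-0.74 ± 0.15, adjusted p = 0.0191). This call was lost without WT replicate 1 (adjusted p = 0.107), WT replicate 2 (0.107) or LSKO replicate 2 (log2 fold change -0.49) and in DESeq2 (adjusted p = 0.153), and without LSKO replicate 1 there were 3 members lower. With zinc 2 of 12 Kupffer cell markers rose, 1 of 10 endothelial, 2 of 10 stellate cell and 1 of 3 bile duct markers fell, and 0 of 8 hepatocyte markers were called. Their part was not tested.

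**Figure D4:**
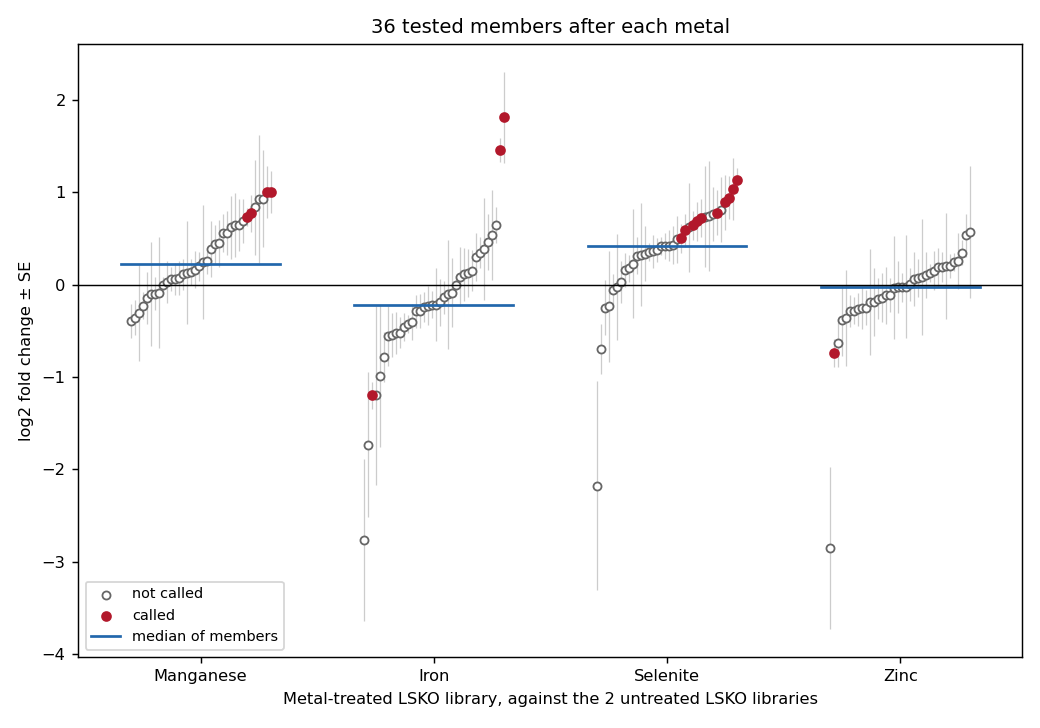
Log2 fold change ± standard error (vertical axis) of the 36 tested members, sorted within each metal, for each metal-treated LSKO library against the 2 untreated LSKO libraries; filled points were called and the blue line is the member median. The medians were 0.22 for manganese, -0.22 for iron, 0.42 for selenite and -0.03 for zinc.

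Selenite was also set against iron and zinc, 3 LSKO libraries counted in the same way. Here 14 members were higher with selenite (38.9%; 7.53% of all genes) and 0 lower (8.35% of all genes; 20 higher and 0 lower by unadjusted p below 0.05), with a member median of 0.63 against 0.02 over all genes. Cyp2j5 was higher by 1.35 ± 0.24 (adjusted p = 0.00383), Cyp2d26 by 0.77 ± 0.15 (adjusted p = 0.00495) and Cyp2d10 by 0.67 ± 0.14 (adjusted p = 0.00791), and these 3 calls held under all 11 alternative fits. Cyp2c68 was higher by 0.87 ± 0.13 (adjusted p = 0.00213), with 27.8 normalized CPM with selenite against 9.32 with iron and 24.7 with zinc. The remaining 10, Cyp2a12, Cyp2c23, Cyp2c40, Cyp2c54, Cyp2c70, Cyp2d9, Cyp2e1, Cyp2j6, Cyp2r1 and Cyp3a11, ranged from 0.51 (Cyp2j6) to 1.17 (Cyp2c54). Cyp2a5, raised with both iron and selenite, was not among them (0.23 ± 0.13, adjusted p = 0.244). After the correction for length and GC content 5 members were higher, where 557 of all 15468 genes were, and the member median was 0.35. DESeq2 called 5 members higher, where 616 of all genes were. Fewer members were called without WT replicate 1 or without WT replicate 2, with a member median of 0.59 in either fit. Markers of every cell type listed were among the genes higher with selenite: 5 of 8 hepatocyte, 6 of 12 Kupffer cell, 3 of 10 endothelial, 3 of 10 stellate cell and 2 of 3 bile duct markers, with 0 lower in each list. Their part was not tested.

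**Figure D5:**
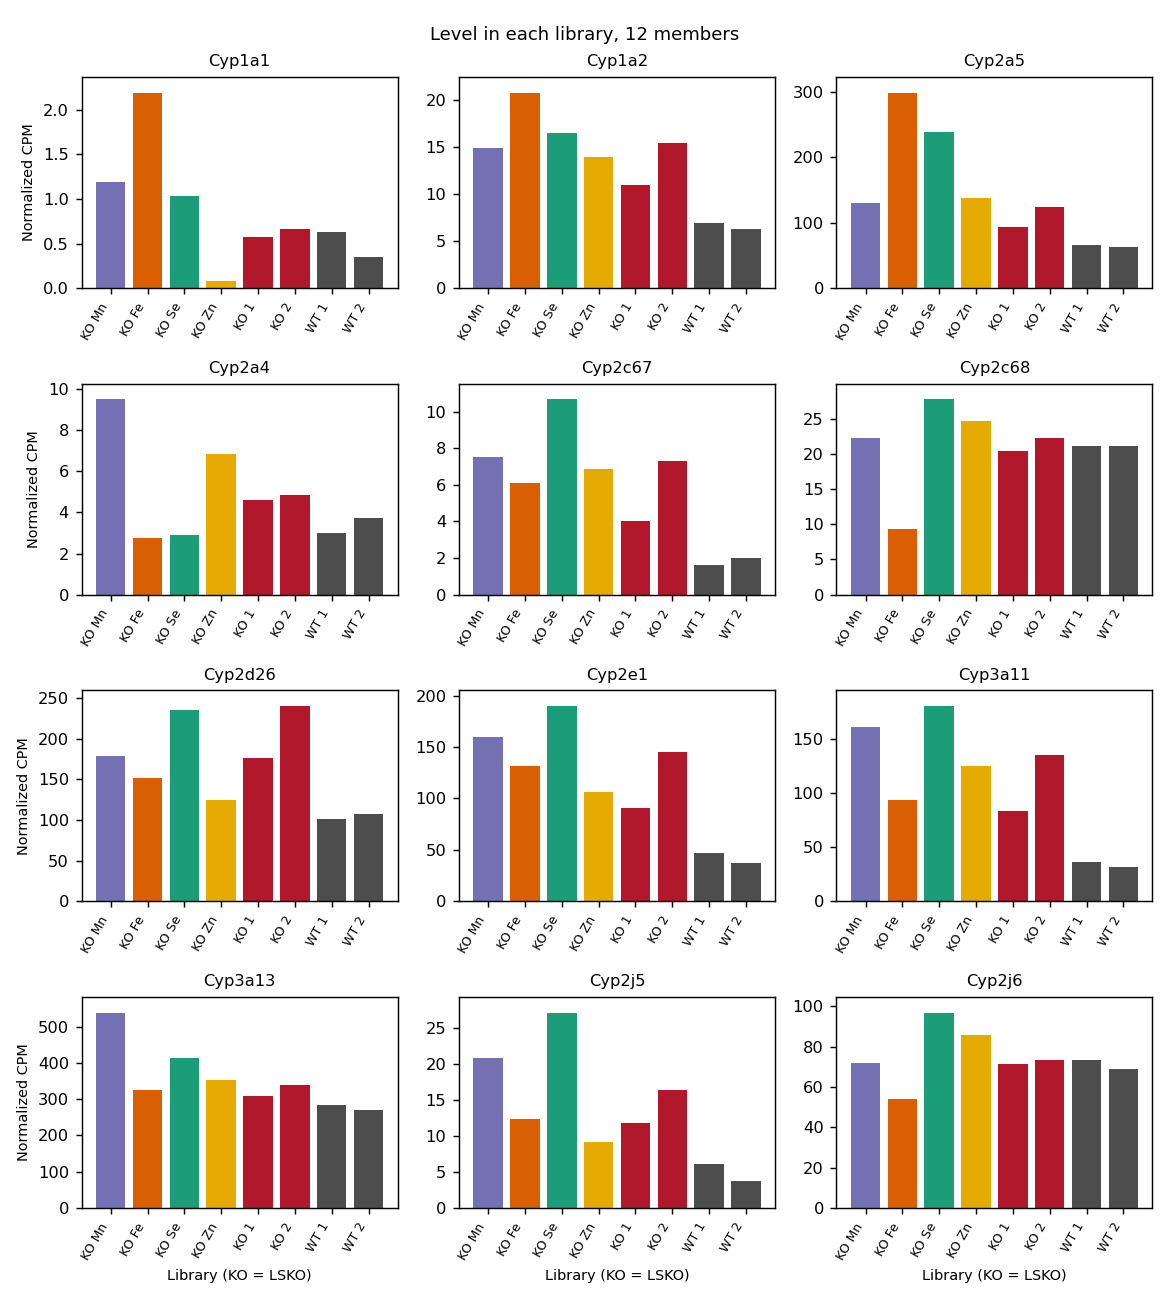
Normalized CPM (vertical axis, from 0, with its own scale in each panel) of 12 members in the 8 libraries, metal-treated LSKO, untreated LSKO and WT, each bar 1 library. Cyp2a5 is highest with iron and selenite, Cyp2c68 lowest with iron, Cyp3a13 highest with manganese, and Cyp2j6 near 70 in both untreated groups.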

How the data were processed

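RNA-seq of primary mouse hepatocytes gave 8 libraries in 6 groups taken from the labels. The authors trimmed reads with Trimmomatic, aligned them to GRCm38 with HISAT2 and counted them with HTSeq, and the deposited values are raw counts per Ensembl gene. The sources used here name neither strand setting nor annotation release. The 5 summary lines of each file (27.8% to 60.7% of its lines' total) stayed out of library sizes. IDs were matched to symbols of GENCODE M21 (55450 of 55450).

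Counts were fitted with edgeR 4.0.16 in R 4.3.3 (quasi-likelihood F-test, TMM, genes with at least 80 counts in sum, 8 libraries in 1 model of 6 groups, biological coefficient of variation 8.29%, 2 residual degrees of freedom). Standard errors are the log2 fold change divided by the root of F. Script steps were tested on simulated data. Alternatives were DESeq2 1.42.0, median-ratio size factors, no filter, a replicate block, a length and GC correction, members without exon overlap, and each WT or LSKO replicate left out. A crossed block, a 95% transcript identity limit and a fit without manganese were added after seeing the data. Per-kilobase levels use the longest protein-coding transcript.

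Members given with every library's value were those called in a comparison with a mean of at least 1 normalized CPM, the 10 highest per kilobase, and a fixed list of well-known enzymes. Cyp3a59, below that mean, is given by its reads. The members, the lists and this rule were chosen with earlier results of these data known. Sex chromosome genes were counted as a label check and are not described.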

Additional observations from a re-analysis of the deposited data

How the results depend on the processing

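No call of a member changed direction under any alternative run. Members higher in untreated LSKO than in WT numbered 19, and 9 to 22 with 1 replicate left out. Members higher in iron, selenite and zinc LSKO than in WT numbered 20, and 15 to 22 with 1 replicate left out. With manganese, 4 were higher: 1 in DESeq2, 8 without the filter (where 1 was lower), 2 among members with no exon overlap, 2 among members under 95% identity, and 2 to 12 with 1 replicate left out (0 to 2 lower). With iron, 2 were higher: 1 in DESeq2, 1 under 95% identity and 1 to 4 with 1 replicate left out, while 1 was lower: 3 without the filter, 0 under 95% identity and 1 to 8 with 1 replicate left out. With selenite, 10 were higher: 2 in DESeq2, 1 after the length and GC correction (1 lower), 6 under 95% identity and 2 to 16 with 1 replicate left out. With zinc, 0 were higher (0 to 2 with 1 replicate left out) and 1 was lower: 0 in DESeq2, 3 without the filter and 0 to 3 with 1 replicate left out. For selenite against iron and zinc, 14 were higher: 5 in DESeq2, 5 after the length and GC correction and 6 to 16 with 1 replicate left out. The number called over all genes moved in the alternative fits as well and is not given beside each member count here. The causes were not tested, beyond fewer members or libraries where an alternative leaves some out.

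Of 71 calls of single members, DESeq2 lost 24 (it gave no adjusted p for 2 more), the length and GC correction 20, median-ratio size factors 6, no filter 2, and leaving out WT replicate 1, WT replicate 2, LSKO replicate 1 or LSKO replicate 2 lost 30, 34, 12 and 7. The differences between replicates of WT and of LSKO were not alike (r = -0.1045 over 12437 genes). A single difference per group cannot exclude that replicate numbers pair the samples. With the replicate block, 20 members were higher in untreated LSKO, 6 with manganese, 3 higher and 2 lower with iron, 11 higher with selenite, 1 lower with zinc, 21 higher in iron, selenite and zinc LSKO, and 17 with selenite against iron and zinc. With the crossed block these counts were 19, 7, 3 and 1, 12, 2, 21 and 16. Neither block lost a call. The alternative by protein identity was not run.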

Other observations

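Of the other P450 families, 24 of 39 protein-coding genes were tested. In untreated LSKO against WT cells 5 rose and 1 fell. Cyp17a1, the steroid hydroxylase and lyase, was counted with 114, 53, 134 and 39 reads with manganese, iron, selenite and zinc, 67 and 142 in untreated LSKO cells and 0 and 1 in WT cells, so no fold change is given. Cyp4a12a, a fatty acid hydroxylase, had 5.38, 3.99, 5.39 and 4.12 normalized CPM with the metals, 3.52 and 4.60 in untreated LSKO cells and 1.01 and 0.960 in WT cells. Cyp4a10, Cyp4f14 and Cyp7b1 rose too, and Cyp4b1 fell, with 44.3 and 32.6 normalized CPM in untreated LSKO cells and 59.7 and 53.1 in WT cells.

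With iron, 0 of the 24 rose and 3 fell. The retinoic acid hydroxylases were among them: Cyp26a1 had 2.69 normalized CPM with iron against 10.8 and 15.1 in untreated LSKO cells, and Cyp26b1 had 1.54 against 10.2 and 5.30. Cyp26b1 also fell with selenite, to 1.73. In each metal group these values come from 1 library.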
